A study of Mus musculus with 20 samples.

Results

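The aminoacyl-tRNA synthetases of intestinal IgA+ plasma cells (IgA+ PCs) were followed over the day. Members were taken by symbol from the deposited FPKM table: symbols made of 1 letter and "ars", alone or ending in 1 or 2, together with Eprs, Farsa and Farsb. The rule gave 34 genes of the 18886 genes in that table: 17 cytosolic enzymes and 17 mitochondrial enzymes, whose symbols end in 2. Gars and Kars each encode the enzyme of both compartments in mammals and were counted as cytosolic. All 34 passed the filter on low counts and stood among the 13967 genes tested. The cells were IgA+ CD138+ plasma cells, sort-purified from the small intestinal lamina propria of Wild Type mice on a C57BL/6 background, and their poly-T selected mRNA was sequenced in bulk. Each library held the cells of 1 animal, and 5 animals were taken at each of ZT0, ZT6, ZT12 and ZT18, the zeitgeber times in hours, with lights on at ZT0 and lights off at ZT12. The groups shared genotype, strain, tissue and sort, and differed by time of day.

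Each synthetase joins 1 kind of amino acid to its tRNA, except that Eprs serves glutamate and proline. Ribosomes in the cytosol or in mitochondria then use the charged tRNA. A plasma cell makes protein for export at a very high rate, so the cytosolic enzymes serve a heavy demand there, while the mitochondrial enzymes serve the few proteins encoded by mitochondrial DNA. When uncharged tRNA builds up, the kinase encoded by Eif2ak4 (GCN2) lets the transcription factor ATF4 accumulate, and ATF4 is known to raise the transcription of many cytosolic synthetase genes, amino acid transporters and enzymes of amino acid synthesis.

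The 20 libraries held 35.6 to 68.0 M counts, of which 52.6% to 62.3% fell in immunoglobulin gene segments. The plasma cell markers Sdc1, Jchain, Prdm1, Xbp1, Irf4 and Igha were all present, Jchain at 45600 to 62100 TMM-scaled CPM (counts per M counts, below CPM) and Sdc1 at 693 to 862. Apart from Epcam (40.2 to 58.4 CPM), the enterocyte markers each stayed at 5.99 CPM or less, and each T cell marker at 1.16 CPM or less. Summed macrophage and dendritic cell markers ranged from 39.3 to 63.9 CPM. Called between any times (edgeR adjusted p under 0.01) were 2 of 6 plasma cell markers, 1 of 5 B cell markers, 1 of 8 tested enterocyte markers and 2 of 5 stromal and endothelial markers. Of the tested T cell, Paneth and goblet cell, macrophage and dendritic cell, and heat shock genes 0 were called. Over all genes tested, 19.5% were called. Summed heat shock expression ran from 669 to 6100 CPM, and summed Paneth and goblet cell markers from 1.59 to 45.7 CPM. Replicate 5 of ZT12 stood apart, with the highest heat shock sum and the highest value of Lars2. In bulk samples, fewer cells of a type and less RNA per cell cannot be told apart.

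Per length of transcript, cytosolic synthetases were the more abundant class. The median over cytosolic members was 41.0 FPKM, against 4.72 FPKM for mitochondrial members, a ratio of 8.69. Vars, the valine enzyme, led with 213 ± 28.7 FPKM (SD, n = 20 libraries) and its range did not overlap that of Nars, the asparagine enzyme, at 62.9 ± 4.99. Yars (55.2), Mars (51.7) and Sars (51.6 FPKM), for tyrosine, methionine and serine, came next, and their ranges over the libraries overlapped. Farsa and Farsb, which encode both subunits of the phenylalanine enzyme, were the lowest cytosolic members at 14 ± 1.39 and 11.4 ± 0.992 FPKM. Among mitochondrial members only Tars2, at 13.3 ± 2.08 FPKM, and Lars2 reached the level of Farsb, and Mars2 was lowest at 0.491 ± 0.0822. Lars2 had a mean of 110 FPKM with an SD of 177, and its values by library are given separately. Where 1 amino acid had a member in each compartment, the cytosolic transcript was higher in all 14 pairs compared. These used 13 mitochondrial genes because Farsa and Farsb share the partner Fars2. Leucine, histidine and threonine were left out, as Lars, Hars and Tars had no FPKM. Eprs was paired with Ears2, for glutamate, and its pair for proline with Pars2 was not among those compared. Eprs had 24.5 FPKM and Pars2 0.597 FPKM. By CPM, which ignores length, group means of Hars were 45.3 to 49.7, above Hars2 (8.26 to 11). Those of Tars were 48.3 to 53.2, above Tars2 (16.6 to 19.3). Those of Lars were 48.2 to 51.3, below Lars2, whose median was 222 CPM without replicate 5 of ZT12 and of ZT18. The FPKM ratio of the 14 pairs ran from 2.41 for Farsb over Fars2 to 105 for Mars over Mars2, with a median of 11. The FPKM of Mars2 rest on a length of 11294 bases, against 1771 for Mars and 3881 for Lars2, the next longest. Before division by length, Mars had a mean of 91.5 CPM and Mars2 of 5.52 CPM. The lowest mitochondrial member by CPM was Pars2, at 0.946. FPKM values follow the library total, and dividing TMM-scaled CPM by the same lengths gave medians of 40.9 and 4.71. Because the lengths were taken from the FPKM values, these medians do not test the lengths.

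**Figure D1:**
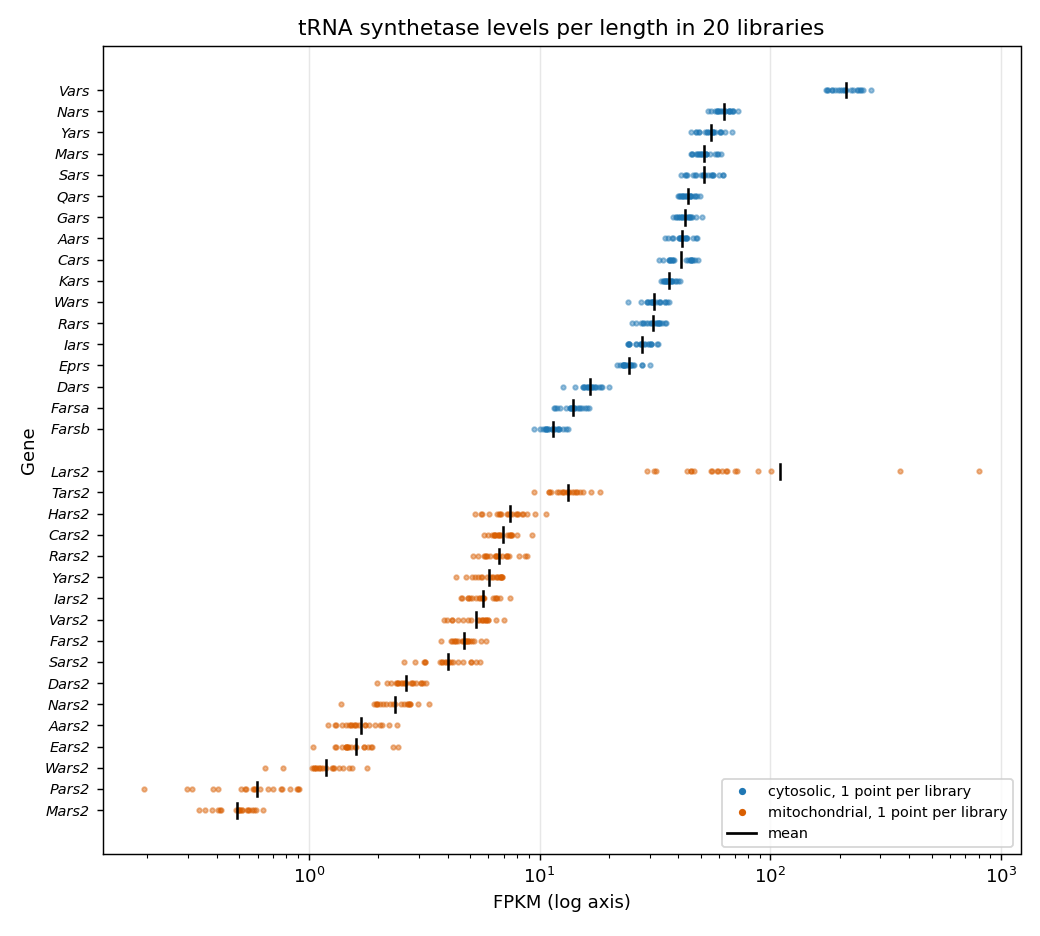
Each row is 1 synthetase, each point its FPKM in 1 of the 20 libraries on a log axis, and each black bar the mean. The blue cytosolic rows lie between mean levels of 11.4 and 213 FPKM, and the orange mitochondrial rows between 0.491 and 13.3 FPKM apart from Lars2.

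The 4 times of day were then compared to ask which synthetases changed over the day. Differences between any of the times were called for 8 of 17 cytosolic members and for 1 of 17 mitochondrial members, where 19.5% of all genes tested were called (edgeR quasi-likelihood test, Benjamini-Hochberg adjusted p under 0.01 over all genes). The cytosolic genes were Sars, Vars, Mars, Yars, Iars, Nars, Wars and Gars, and the mitochondrial gene was Hars2. When libraries were scaled by their totals in place of TMM, 4 cytosolic members (Iars, Sars, Vars and Yars) and 2 mitochondrial members (Aars2 and Hars2) were called. The 19.5% is the share of all genes with TMM, and the share with library totals is not given here. Changes were small: the ratio of the highest to the lowest group mean had a median of 1.18 in each class and of 1.26 over all genes tested, and the widest cytosolic ratio was 1.37, for Sars. In 11 of 17 cytosolic members the highest group mean was that of ZT12, against 4 of 17 mitochondrial members and 23.2% of all genes. That time depended on the scaling: with library totals, a comparison added after seeing the data, 1 cytosolic member (Sars) was highest at ZT12, 11 at ZT0 and 4 at ZT6, and of the mitochondrial members 3 were highest at ZT12 and 9 at ZT0. The share of all genes highest at each time was not counted with library totals. The median log2 difference of all genes from ZT0 to ZT12 was -0.17 there and 0 with TMM. Cytosolic members varied little between animals of a group, with a median coefficient of variation of 6.00%, compared with 12.7% for mitochondrial members and 13.1% for all genes. The median standard error of a 6-hour step was accordingly 0.06 on the log2 scale for cytosolic members, from a median of 2490 counts per library, and 0.11 for mitochondrial members, from a median of 335. The mitochondrial members were thus measured less precisely. The median peak-to-trough log2 difference of the fitted 24-hour cosine was 0.19 for them and 0.15 for cytosolic members. That cosine was called for 5 cytosolic members (Sars, Mars, Yars, Vars and Gars) and for 0 mitochondrial members, beside 11.3% of all genes. With library totals it was called for 2 members of each class, Sars and Vars and Aars2 and Hars2, and the 11.3% is again the share with TMM. With TMM, Hars2, Iars2, Aars2, Tars2 and Lars2 had an unadjusted p under 0.05 in that test (0.0021 to 0.0112), beside 4619 of the 13967 genes tested. DESeq2 called Hars2 and Lars2. A rank test for a 24-hour rhythm (JTK) called 0 of 34 members and 227 genes in all.

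Sars, the serine enzyme, had the smallest p of the family. Its values were 80.2, 89.3, 83.6, 87.9 and 88.1 CPM at ZT0 and 98.0, 105, 97.1, 98.9 and 91.7 at ZT6. They were 106, 101, 108, 109 and 110 CPM at ZT12 and 77.8, 74.2, 75.1, 77.7 and 85.3 at ZT18. All ZT6 libraries lay above all ZT0 libraries, and all ZT12 libraries above those of ZT18, while ZT6 and ZT12 overlapped, and ZT18 had the lowest group mean. Sars rose by a log2 difference of 0.32 ± 0.05 (SE, n = 5 per time) from ZT0 to ZT12 (adjusted p = 3.09e-05) and fell by 0.46 ± 0.05 from ZT12 to ZT18 (adjusted p = 6.07e-08). The gene lies on chromosome 3 from 108424865 to 108445209 (ENSMUSG00000068739, minus strand, GRCm38).

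Mars and Yars had a similar course. Mars, the methionine enzyme and a part of the multisynthetase complex, measured 79.96, 85.4, 87.6, 92.5 and 90.5 CPM at ZT0 and 89.2, 98.2, 101, 94.7 and 87.1 at ZT6. At ZT12 it measured 101, 102, 103, 106 and 97.0 CPM, and at ZT18 81.3, 85.1, 82.4, 82.7 and 83.6. The 5 libraries of ZT12 were above all those of ZT0 and ZT18, with a log2 difference of 0.22 ± 0.05 over ZT0 (adjusted p = 0.00279) and a fall by 0.30 ± 0.05 to ZT18 (adjusted p = 4.23e-05). Of the exon bases of Mars, 1.99% also lie in exons of Ddit3 on the other strand.

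Yars, the tyrosine enzyme, measured 56.9, 66.5, 63.5, 74.8 and 66.2 CPM at ZT0 and 66.6, 71.3, 68.9, 64.0 and 63.0 at ZT6. It measured 73.4, 73.6, 67.8, 79.4 and 69.8 CPM at ZT12 and 54.5, 58.6, 55.7, 57.6 and 57.9 at ZT18. The ZT18 libraries were low as a group, below all libraries of ZT6 and ZT12, while those of ZT0 spread across the others. The fall from ZT12 to ZT18 was by 0.36 ± 0.06 (adjusted p = 2.46e-05), and ZT12 over ZT0 was 0.15 ± 0.06 and did not pass (adjusted p = 0.104).

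Iars and Nars, for isoleucine and asparagine, had their lowest group mean at ZT18. Iars measured 47.2, 51.0, 57.6, 53.6 and 52.2 CPM at ZT0 and 49.4, 51.9, 51.5, 48.9 and 45.3 at ZT6. Its values were 59.3, 54.8, 49.96, 57.5 and 52.5 CPM at ZT12 and 44.3, 44.4, 45.5, 44.6 and 45.4 at ZT18. The 5 values of ZT18 lay within a narrow band under every library of ZT0 and ZT12. Iars fell by 0.29 ± 0.06 from ZT12 to ZT18 (adjusted p = 0.000223) and rose by 0.22 ± 0.05 from ZT18 to ZT0 (adjusted p = 0.00498). The latter call was lost without any 1 of replicates 3, 4 and 5 of ZT0 or replicates 1, 2, 4 and 5 of ZT18 (adjusted p from 0.0103 to 0.0262), and without the 3 libraries highest in heat shock genes (adjusted p = 0.0119). Of the stretches of 31 bases in Iars transcripts, 14.7% also occur in other genes, mostly in Gm4849, so its counts may share reads.

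Nars measured 156, 163, 163, 172 and 173 CPM at ZT0 and 173, 164, 168, 152 and 171 at ZT6. It reached 176, 177, 184, 186 and 177 CPM at ZT12 and 158, 146, 136, 158 and 158 at ZT18. All ZT12 libraries lay above every library of the other times, and the fall to ZT18 was by 0.25 ± 0.05 (adjusted p = 0.000421).

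Gars, the glycine enzyme of both compartments, was low at ZT0. It measured 45.6, 50.8, 56.1, 51.3 and 52.9 CPM at ZT0 and 56.6, 63.1, 58.2, 58.4 and 52.6 at ZT6. The values were 59.9, 64.1, 59.6, 61.4 and 58.0 CPM at ZT12 and 54.2, 59.1, 52.4, 57.6 and 60.8 at ZT18. Every ZT12 library exceeded every ZT0 library, by a log2 difference of 0.24 ± 0.06 (adjusted p = 0.00535), and the ranges of ZT6 and ZT18 overlapped both. That call was lost without any 1 of replicates 1, 2 and 4 of ZT0 or replicates 1 and 2 of ZT12 (adjusted p from 0.0115 to 0.0323), and the call between any times (adjusted p = 0.00889) passed in 12 of 30 alternatives. Kars, the lysine enzyme of both compartments, differed by 0.09 ± 0.05 between ZT12 and ZT0 and was not called in any comparison.

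A pair of cytosolic genes ran another course. Vars measured 325, 324, 336, 354 and 318 CPM at ZT0 and 282, 314, 298, 285 and 263 at ZT6. Its values were 287, 306, 300.3, 309 and 300.5 CPM at ZT12 and 248, 267, 278, 261 and 248 at ZT18. ZT0 was highest and ZT18 lowest, with no overlap between either of them and ZT12. Vars rose by 0.35 ± 0.05 from ZT18 to ZT0 (adjusted p = 3.28e-06), fell by 0.20 ± 0.05 from ZT0 to ZT6 (adjusted p = 0.00212) and fell by 0.21 ± 0.05 from ZT12 to ZT18 (adjusted p = 0.00128). The fall from ZT0 to ZT6 was lost without replicate 4 of ZT0 (adjusted p = 0.01), without replicate 5 of ZT6 (adjusted p = 0.0119) or with library totals (adjusted p = 0.0172). The fall from ZT12 to ZT18 was lost without the 3 libraries highest in enterocyte markers, the 3 highest in heat shock genes or the 2 highest in Lars2 (adjusted p = 0.0199, 0.0147 and 0.0108, the last setting chosen after seeing the data).

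Wars, the tryptophan enzyme, which interferon gamma is also known to induce, measured 51.0, 51.4, 52.4, 44.5 and 53.5 CPM at ZT0 and 55.0, 51.2, 60.2, 58.2 and 63.9 at ZT6. It measured 60.7, 54.2, 55.9, 52.9 and 58.0 CPM at ZT12 and 56.3, 57.9, 62.6, 65.6 and 60.3 at ZT18. It was highest at ZT18 and lowest at ZT0, without overlap between those times, and fell by 0.26 ± 0.06 from ZT18 to ZT0 (adjusted p = 0.00249). The call was lost without replicate 4 of ZT0 (adjusted p = 0.0138) or replicate 4 of ZT18 (adjusted p = 0.0128), and with library totals (-0.18, adjusted p = 0.112).

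**Figure D2:**
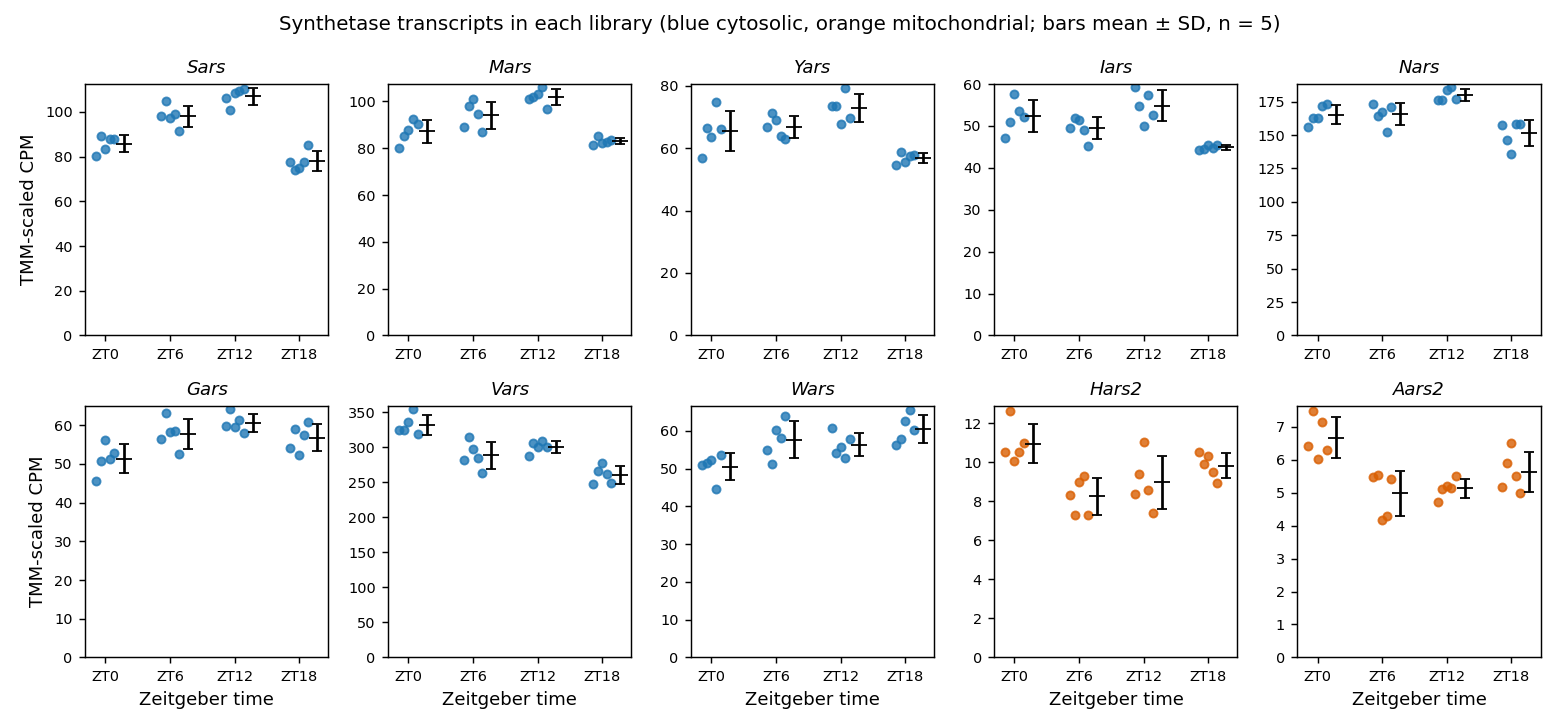
Each panel is 1 gene, each point the TMM-scaled CPM of 1 library at 1 time of day, and the bars show mean ± SD of 5 libraries on axes that start at 0. Sars, Mars, Yars, Iars, Nars and Gars have their highest mean at ZT12 (with library totals Sars alone of these 6), Vars, Hars2 and Aars2 at ZT0, and Wars at ZT18.

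Both mitochondrial genes with a called step were highest at ZT0. Hars2, the histidine enzyme of mitochondria, measured 10.5, 12.6, 10.1, 10.5 and 11.01 CPM at ZT0 and 8.35, 7.30, 9.02, 9.32 and 7.28 at ZT6. Its values were 8.40, 9.39, 11.1, 8.60 and 7.42 CPM at ZT12 and 10.5, 9.89, 10.3, 9.49 and 8.93 at ZT18. All ZT0 libraries were above all ZT6 libraries, and Hars2 fell by 0.41 ± 0.10 between them (adjusted p = 0.00388). That fall was lost without replicate 2 of ZT0, replicate 2 of ZT6 or replicate 5 of ZT6 (adjusted p from 0.0155 to 0.0183), and the call between any times (adjusted p = 0.00878) passed in 11 of 30 alternatives. Hars2 and Hars are neighbours on opposite strands of chromosome 18, and 4.56% of the exon bases of Hars2 also lie in exons of Hars.

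Aars2, the alanine enzyme of mitochondria, measured 6.41, 7.48, 6.03, 7.15 and 6.29 CPM at ZT0 and 5.47, 5.52, 4.18, 4.30 and 5.41 at ZT6. It measured 4.70, 5.13, 5.19, 5.15 and 5.51 CPM at ZT12 and 5.18, 5.89, 6.51, 5.501 and 4.99 at ZT18. The ZT0 libraries lay above all libraries of ZT6 and ZT12. Aars2 fell by 0.42 ± 0.11 from ZT0 to ZT6 (adjusted p = 0.00803), a call made in 12 of 29 alternatives, and ZT12 against ZT0 gave a log2 difference of -0.38 ± 0.11 (adjusted p = 0.0301). The difference between any times stood just outside the threshold (adjusted p = 0.0121). For Aars, the cytosolic enzyme for alanine, the ratio of highest to lowest group mean was 1.1 (adjusted p = 0.345 between any times).

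The steps between times were then set side by side for the classes, whose difference itself was not tested. From ZT12 to ZT18, 6 of 17 cytosolic members fell (Sars, Yars, Mars, Iars, Nars and Vars) and 0 rose, where 5.14% of all genes fell, 4.8% rose and 9.94% were called in all. With library totals, Sars and Yars were called and Iars, Mars, Nars and Vars were not (adjusted p = 0.0335, 0.0273, 0.0732 and 0.235). The groups did not overlap for 8 of 17 cytosolic members and for 0 of 17 mitochondrial members, beside 12.6% of all genes. The median log2 difference was -0.09 over cytosolic members, 0.05 over mitochondrial members and 0.01 over all genes. When libraries were scaled by their totals, these medians were -0.01, 0.13 and 0.09. With TMM, 14 cytosolic and 7 mitochondrial members had a negative value. No mitochondrial member was called by edgeR. Their unadjusted p was under 0.05 for 5 of 17, beside 4161 of the 13967 genes tested. DESeq2 called 1 mitochondrial member (Nars2). Nars2, the asparagine enzyme, had the most negative value after Lars2, -0.52 ± 0.15 (edgeR adjusted p = 0.0136). Summed over the 17 cytosolic genes, the level was 1380 ± 25.4 CPM at ZT12 and 1220 ± 17.8 at ZT18, with 1310 ± 41.8 at ZT0 and 1300 ± 42.5 at ZT6 (SD, n = 5). The 5 sums of ZT18 lay below all other sums. With library totals the sum was highest at ZT0, 1379 ± 54 CPM, then 1326 ± 80.5 at ZT6, 1295 ± 110 at ZT12 and 1213 ± 22.9 at ZT18, where its range reached into those of ZT6 and ZT12.

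For the change over the light phase, ZT12 against ZT0, 3 of 17 cytosolic members rose (Sars, Gars and Mars) and 0 fell, beside 1.96% of all genes called higher, 1.9% called lower and 3.86% in all. The groups did not overlap for 7 cytosolic members and for 1 mitochondrial member, Aars2, beside 7.23% of all genes. The median log2 difference was 0.12 over cytosolic and -0.04 over mitochondrial members. When libraries were scaled by their totals instead of TMM, these medians stood at -0.04 and -0.22 and that of all genes at -0.17, so the distance of the cytosolic median from all genes was 0.13 there and 0.12 with TMM. With library totals none of these 3 was called (Sars 0.15, Gars 0.08 and Mars 0.06, adjusted p = 0.111, 0.469 and 0.548), and Vars was called instead. The call of Mars was lost without replicate 1 or 2 of ZT0 (adjusted p = 0.0177 and 0.0126). With TMM, edgeR and DESeq2 called 0 of 17 mitochondrial members (unadjusted edgeR p under 0.05 for 7 of 17, beside 2980 of 13967 genes). With library totals edgeR called 2 of them, Aars2 and Hars2. Beside these steps, summed heat shock expression ran from 1080 to 1820 CPM at ZT0, from 1570 to 6100 at ZT12 and from 1120 to 4470 at ZT18, and summed enterocyte markers, nearly all Epcam, from 42.2 to 49.2, 53.0 to 64.3 and 53.8 to 60.1. Summed stromal and endothelial markers, mostly Pecam1, ran from 27.5 to 33.7 CPM at ZT0, 25.4 to 27.8 at ZT12 and 28.5 to 36.5 at ZT18. Without the 3 libraries highest in heat shock genes, or without the 3 highest in enterocyte markers, 1 cytosolic member (Sars) was called for ZT12 against ZT0. Both settings left fewer ZT12 libraries. The part of the marker and heat shock genes, and that of the smaller group, in the result was not tested.

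The other steps held fewer calls. From ZT0 to ZT6, Sars rose by 0.19 ± 0.05 and Vars, Hars2 and Aars2 fell, 4 of 34 members, beside 8.78% of all genes (4.65% higher and 4.13% lower). The groups did not overlap for 2 members of each class, beside 10.3% of all genes. The rise of Sars was lost without any 1 of replicates 1 and 3 of ZT0 or replicates 1, 2, 3 and 4 of ZT6 (adjusted p from 0.0115 to 0.0286). It was also lost with library totals, with a minimum of 10 counts over all libraries, and without the 3 libraries highest in enterocyte markers (adjusted p up to 0.147). From ZT6 to ZT12 edgeR called 0 of 34 members, beside 4.58% of all genes (2.34% higher and 2.24% lower). The median log2 difference over cytosolic members was 0.12, with 14 of 17 above 0, beside a median of 0 over all genes. With library totals it was 0.00, beside -0.13 over all genes. The groups did not overlap for 4 cytosolic members (Dars, Eprs, Kars and Nars), beside 7.95% of all genes. The unadjusted p was under 0.05 for 8 cytosolic and 3 mitochondrial members there, beside 3313 of 13967 genes, and DESeq2 called Eprs and Lars2. From ZT18 to ZT0, Vars and Iars rose and Wars fell, 3 of 34 members, beside 7.57% of all genes (3.38% higher and 4.19% lower). Between the middle of the light and of the dark phase, Sars was lower at ZT18 than at ZT6 by -0.33 ± 0.05 (adjusted p = 1.28e-05) and Yars by -0.23 ± 0.06 (adjusted p = 0.00484), 2 of 34 members, beside 8.24% of all genes (4.05% higher and 4.2% lower). The groups did not overlap for 3 cytosolic members, beside 11.5% of all genes. The call of Yars was lost without any 1 of replicates 1, 2 and 3 of ZT6 or replicates 1 and 3 of ZT18 (adjusted p from 0.0112 to 0.0206).

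**Figure D3:**
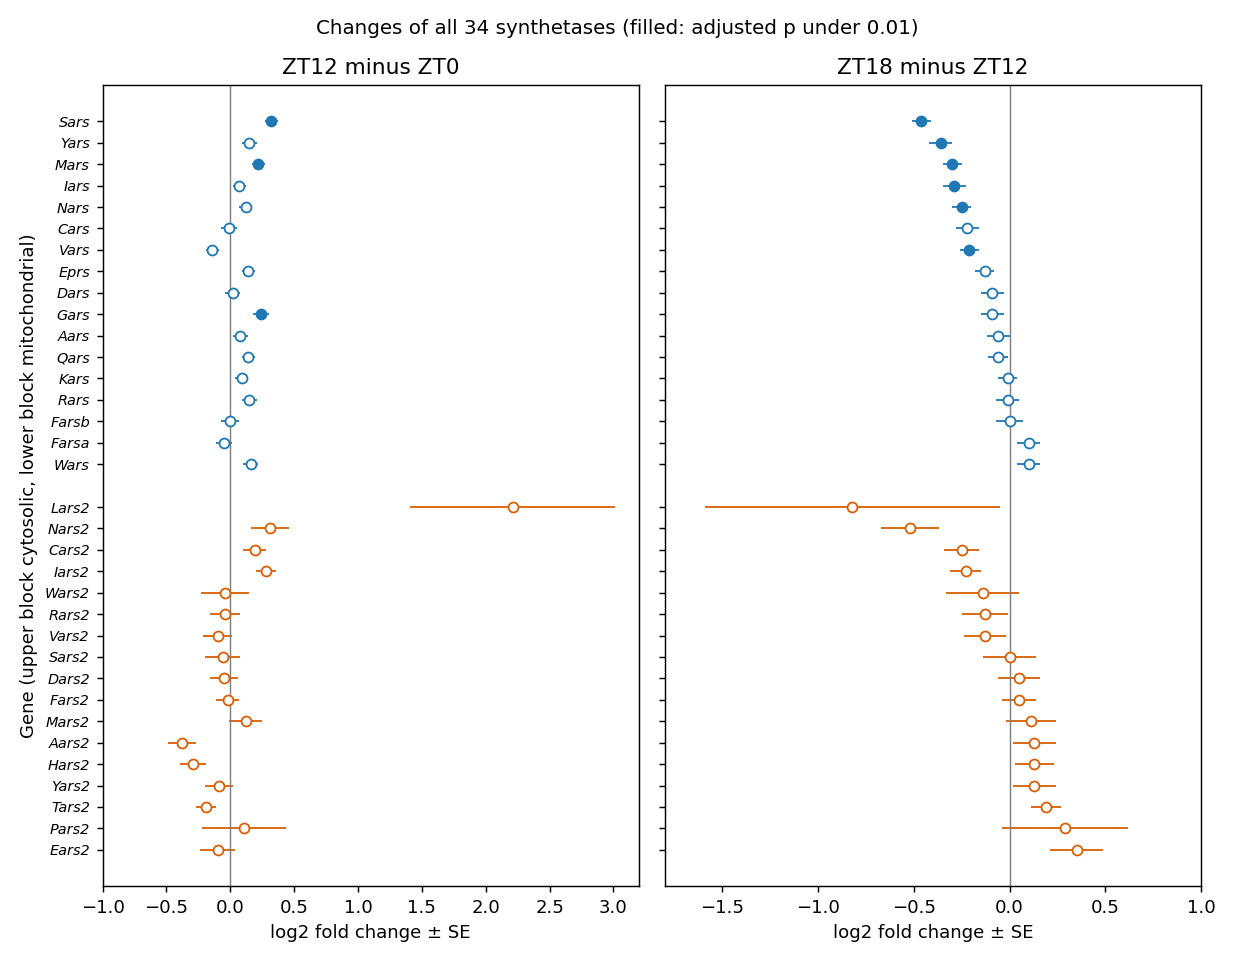
Points are log2 fold changes of the 34 synthetases with their standard errors, for ZT12 minus ZT0 and for ZT18 minus ZT12, with the blue cytosolic block above the orange mitochondrial block and filled points for adjusted p under 0.01. In the cytosolic block 6 points are filled for ZT18 minus ZT12, and the wide bars of Lars2 (2.21 ± 0.80 and -0.82 ± 0.77) go with its high values in replicate 5 of ZT12 and of ZT18.

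Lars2, the leucine enzyme of mitochondria, was set by a pair of libraries. It measured 151, 168, 216, 222 and 223 CPM at ZT0 and 252, 166, 119, 119 and 173 at ZT6. At ZT12 the values were 455, 249.4, 115, 272 and 3431 CPM, and at ZT18 275, 252, 229, 352 and 1449. Replicate 5 of ZT12 and replicate 5 of ZT18 stood 15.5-fold and 6.52-fold above the median of 222 CPM of the other 18 libraries, which ranged from 115 to 455. The log2 difference between ZT12 and ZT0 was 2.21 ± 0.80 (adjusted p = 0.108), and 0.48 (adjusted p = 0.454) without those libraries. The ZT12 mean of 905 CPM was above the ZT18 mean of 511. Without replicate 5 of each time, the means were 273 CPM at ZT12 and 277 CPM at ZT18. DESeq2 called Lars2 between any times.

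The same pair of libraries was high in 3 other genes, which were chosen after their values were seen. The ribosomal RNA gene CT010467.1 stood at 7710 CPM in replicate 5 of ZT12 and 3980 CPM in replicate 5 of ZT18, against 520 to 2430 in the others. Gm15564, an antisense RNA gene on chromosome 16, stood at 27.6 and 13.3 CPM against 0.745 to 3.95, and Rn7sk, the small nuclear RNA 7SK, at 23.4 and 15.9 CPM against 0.453 to 5.29. Over 20 libraries the correlation of log2 CPM with Lars2 was r = 0.95 (Spearman rho 0.80) for Gm15564, 0.79 (0.42) for CT010467.1 and 0.72 (0.40) for Rn7sk, and without that pair of libraries 0.78 (0.73), 0.14 (0.20) and 0.09 (0.18). These points share library and depth. The Lars2-201 transcript holds a stretch of 72 bases, from base 3278 to 3349 of 3894 and past the coding end at base 2908, that occurs with 1 mismatch in Gm15564-202. The part of such reads and of ribosomal RNA in the counts of Lars2 was not tested. The summed level of the other 16 mitochondrial genes was 129 ± 3.30 CPM at ZT0 and 123 ± 3.35 CPM at ZT6, then 127 ± 6.65 CPM at ZT12 and 126 ± 4.08 CPM at ZT18.

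**Figure D4:**
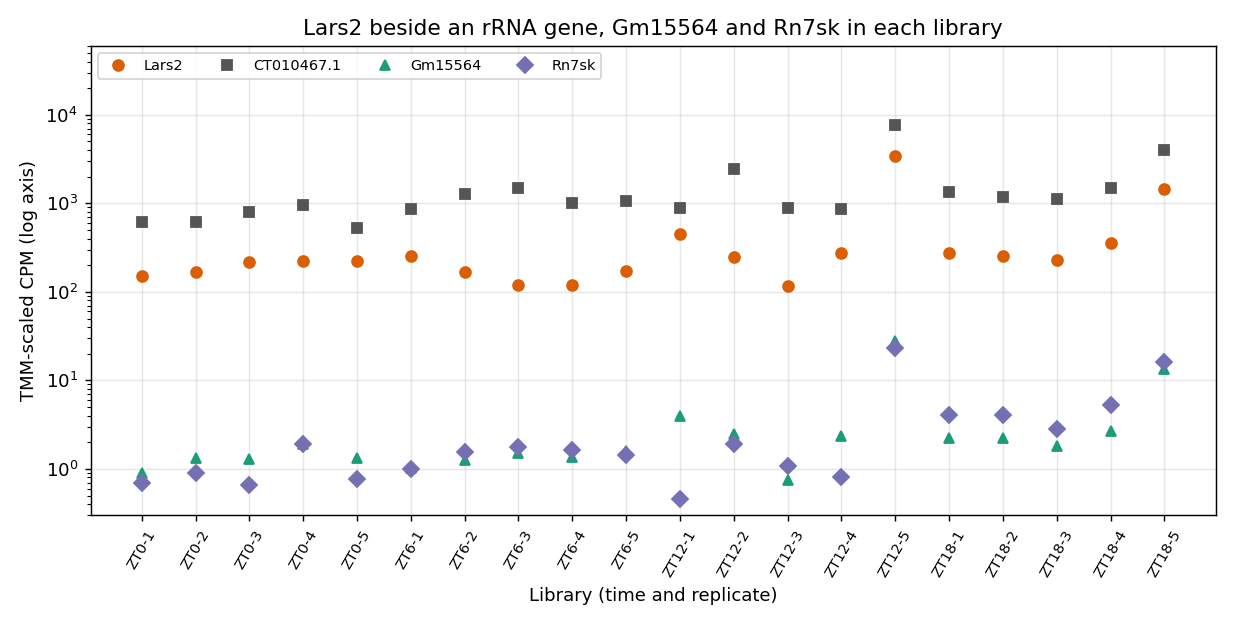
Each column is 1 library and each symbol the TMM-scaled CPM of 1 gene on a log axis. In replicate 5 of ZT12 and replicate 5 of ZT18, Lars2 (3431 and 1449 CPM), CT010467.1, Gm15564 and Rn7sk are all above their values in the other 18 libraries.

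Some cytosolic synthetases sit together in the multisynthetase complex on scaffold proteins, and others work free of it. Of the 7 members in the complex (Eprs, Iars, Mars, Qars, Rars, Kars and Dars), 2 differed between any times, Iars and Mars, and of the 10 outside it 6 did, both beside the 19.5% of all genes. The median log2 difference from ZT12 to ZT18 was -0.09 in the complex and -0.15 outside it. The scaffold gene Aimp1 had 14.5 ± 0.906 CPM at ZT0 and 17.1 ± 1.53 CPM at ZT6, then 15.9 ± 0.577 CPM at ZT12 and 13.9 ± 0.915 CPM at ZT18. It was lower at ZT18 than at ZT6 by -0.30 ± 0.07 (adjusted p = 0.00463), while the scaffold genes Aimp2 and Eef1e1 were not called between any times (adjusted p = 0.401 and 0.0444). Aimp1 was the only 1 of 17 tested genes for scaffolds, related enzymes and tRNA handling that was called between any times. Uncalled genes of that list included Xpot, the exporter of tRNA from the nucleus, and Trnt1, which adds the CCA end to tRNA (adjusted p = 0.0327 and 0.197).

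The members were also compared within a time of day. After the group means were removed, the correlation between pairs of cytosolic members over 20 libraries had a median of 0.07 and ran from -0.73 to 0.81, and between pairs of mitochondrial members it had a median of -0.01. The highest values were those of Aars with Yars (0.81), Mars with Yars (0.75), Iars2 with Vars (0.71), Gars with Mars (0.66) and Gars with Iars (0.65). These libraries share depth and scaling, and the values are a description.

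Genes of the amino acid response were set beside the synthetases, from a list chosen with earlier results of these data known. Of 14 tested genes for the sensing of uncharged tRNA and for targets of ATF4, 10 differed between any times, beside 19.5% of all genes. The sensing genes Eif2ak4, Gcn1l1 and Impact were not among the 10 (adjusted p = 0.15, 0.123 and 0.0319). From ZT0 to ZT12, 8 of the 14 rose and 0 fell, where 1.96% of all genes rose and 1.9% fell. Their median log2 difference was 0.34. Scaled by library totals it was 0.18, beside -0.17 over all genes, and 3 were called. From ZT12 to ZT18, 7 of 14 fell and 0 rose, where 5.14% of all genes fell and 4.8% rose. Their median was -0.39. By library totals it was -0.31, beside 0.09 over all genes, and 6 were called. Asns, which makes asparagine, rose from 46.4 ± 4.54 CPM at ZT0 to 66.1 ± 3.05 at ZT12 and was 45.2 ± 1.87 at ZT18 (SD, n = 5), a log2 rise of 0.51 ± 0.06 (adjusted p = 1.47e-07) and a fall by 0.55 ± 0.06 (adjusted p = 3.64e-08). Slc7a5, the large neutral amino acid transporter, rose by 0.54 ± 0.07 and fell by 0.56 ± 0.07. Shmt2 and Phgdh, enzymes of the serine and glycine pathways, rose by 0.43 ± 0.06 and 0.29 ± 0.05 and fell by 0.43 ± 0.06 and 0.36 ± 0.05. Trib3, a pseudokinase induced by ATF4, had 0.711 ± 0.232 CPM at ZT0 and 2.54 ± 0.531 at ZT12, so its rise by 1.84 ± 0.38 rests on few counts, and Sesn2, which restrains mTORC1, rose by 0.39 ± 0.09. Atf4 itself was called in no comparison, with 324 ± 19.1 CPM at ZT0 and 338 ± 9.27 at ZT12 (adjusted p = 0.139 between any times). Without the 3 libraries highest in enterocyte markers 5 genes rose and 6 fell, without the 3 highest in heat shock genes 6 rose and 5 fell, and without the 2 highest in Lars2 7 rose and 6 fell, the latter setting chosen after seeing the data. Each of these settings left fewer ZT12 libraries.

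**Figure D5:**
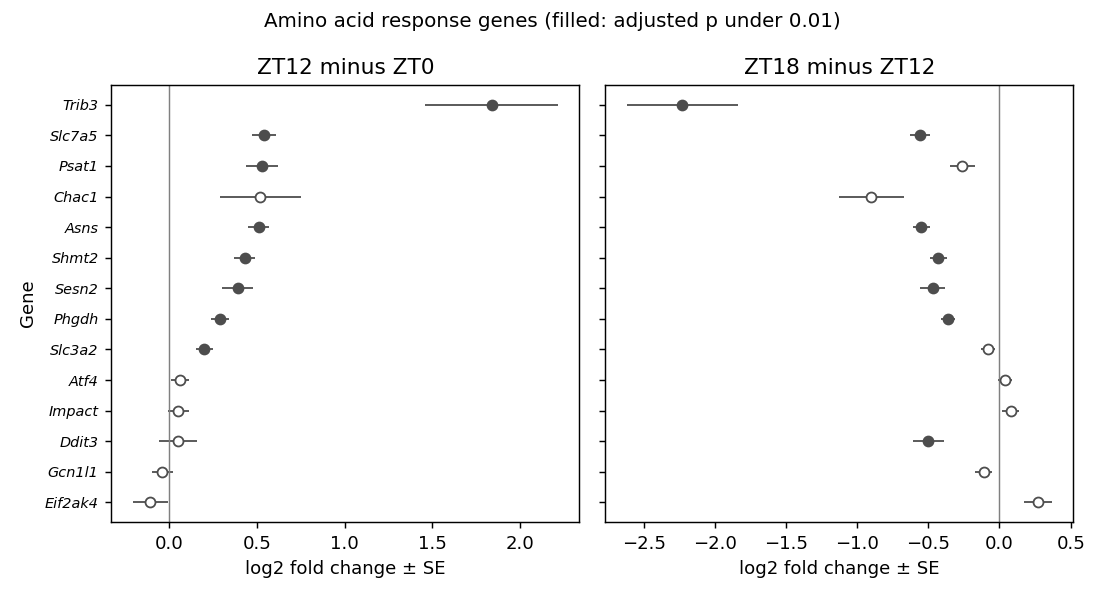
Points are log2 fold changes with standard errors for 14 genes that sense uncharged tRNA or are known targets of ATF4, for ZT12 minus ZT0 and for ZT18 minus ZT12, filled for adjusted p under 0.01. For ZT12 minus ZT0 8 filled points lie right of 0, and for ZT18 minus ZT12 7 lie left of 0, with Trib3 farthest from 0 (1.84 and -2.23) and Atf4 near 0 (0.06 and 0.04). The points of the sensing genes Eif2ak4, Gcn1l1 and Impact are not filled.

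ATF4 binds with partners to C/EBP-ATF response elements, whose core was searched as TGATGNAA on both strands of RefSeq promoters (GRCm38.p6, 250 bases before to 50 after the start), found for 26 members. It occurred in 4 of 12 cytosolic promoters and in 0 of 14 mitochondrial promoters, beside 4.51% of the 27025 genes with a promoter. The 4 genes are shown from 120 bases before to 20 after the RefSeq start, which differs from the gene bounds of GENCODE (for Sars it lies upstream of the end given above), with the matches in capitals, together with Sars, the synthetase with the smallest p, in which these letters were not found in this window. Each is written 5′ to 3′ on the strand of its gene, and the matches of Aars, Gars and Iars lie on the other strand, so that their capitals read as the reverse complement.
Aars, chr8:111033722-111033861, plus strand: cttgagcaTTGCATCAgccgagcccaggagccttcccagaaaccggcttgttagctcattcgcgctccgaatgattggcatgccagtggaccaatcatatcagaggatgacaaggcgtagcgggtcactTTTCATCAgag
Gars, chr6:55037881-55038020, plus strand: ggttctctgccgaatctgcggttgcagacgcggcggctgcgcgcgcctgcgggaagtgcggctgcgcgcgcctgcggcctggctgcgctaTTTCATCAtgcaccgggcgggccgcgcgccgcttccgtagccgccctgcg
Iars, chr13:49682010-49682149, plus strand: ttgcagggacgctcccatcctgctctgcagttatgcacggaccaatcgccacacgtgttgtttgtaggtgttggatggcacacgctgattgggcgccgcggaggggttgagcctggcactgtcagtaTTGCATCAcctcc
Yars, chr4:129189783-129189922, plus strand: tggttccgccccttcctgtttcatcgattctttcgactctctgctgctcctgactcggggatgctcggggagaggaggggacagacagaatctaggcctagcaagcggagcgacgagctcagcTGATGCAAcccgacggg
Sars, chr3:108445240-108445379, minus strand: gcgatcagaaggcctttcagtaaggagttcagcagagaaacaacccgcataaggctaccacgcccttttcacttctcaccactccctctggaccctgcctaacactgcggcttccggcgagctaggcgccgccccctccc

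The match of Gars lies 30 to 23 bases before the start, and those of Iars and Yars just after it, at bases 8 to 15 and 4 to 11. Aars holds a match on each side, at bases -112 to -105 and 10 to 17. Of these 4 genes, Gars, Iars and Yars were called between any times and Aars was not, and of the 8 cytosolic genes with a promoter and no match, Mars and Sars were called, beside 19.5% of all genes. Nars, Vars and Wars, also called, had no promoter searched. The clock element CACGTG (E-box) was found in Aars, Farsb and Iars of 12 cytosolic promoters and in Ears2 of 14 mitochondrial ones, beside 8.09% of genes. The full cAMP response element TGACGTCA was found in no member, beside 2.03% of genes. A match of letters is a description and does not show binding.

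Lars, Hars and Tars, the cytosolic enzymes for leucine, histidine and threonine, had counts but no row in the FPKM table used here, and so fell outside the rule. Lars had 49.5 ± 3.00, 51.3 ± 2.40, 49.6 ± 1.96 and 48.2 ± 3.28 CPM at ZT0, ZT6, ZT12 and ZT18 (SD, n = 5). Hars had 45.3 ± 1.02, 46.2 ± 3.38, 49.7 ± 2.41 and 47.5 ± 2.83 CPM, and Tars 48.3 ± 2.07, 52.8 ± 1.33, 53.2 ± 2.36 and 48.6 ± 2.06. Neither Lars, Hars nor Tars was called between any times (adjusted p = 0.559, 0.181 and 0.0265).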

How the data were processed

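RNA of sorted IgA+ CD138+ cells was used to make libraries with the NEB Next Ultra kit. The authors deposited raw counts per Ensembl gene (47069 genes) and FPKM values (18886 genes) that follow from those counts, the library totals and a fixed length for each gene. An aligner, build, annotation or strand setting was not given in the sources used here. All 20 count columns and all 20 FPKM columns were mapped to samples by name. Counts were analysed with edgeR 4.0.16 in R 4.3.3: filterByExpr, TMM, 1 robust quasi-likelihood fit of the 4 groups to all libraries (common biological coefficient of variation 0.224), two-sided tests, Benjamini-Hochberg adjustment over 13967 genes and a threshold of 0.01. The 24-hour cosine was tested as a joint contrast in that fit. DESeq2 and a newly written JTK rank test were alternatives. The functions were tested on simulated data. Replicates were separate animals, and within groups library pairs differed far beyond counting noise (lowest chi-square per gene 62.4).

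Members, lists, tests and motifs were chosen with earlier results of these data known. Values per library are given for members called between any times, for Aars2 and for Lars2, which were added after their values were seen. Other members are given by ranges and counts, and of each gene list the called genes with the smallest p, 6 at most, beside a few uncalled ones. Gene positions and shared bases come from GENCODE M21 (GRCm38).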

Additional observations from a re-analysis of the deposited data

Results flagged for a closer look

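Within a time of day, 3 values stood apart from the other 4 animals of their group. Lars2 was 3430 CPM in replicate 5 of ZT12, where the next value was 455, and 1450 CPM in replicate 5 of ZT18, where the next was 352. The gap to the nearest value made up 0.898 and 0.90 of the range of the group. Wars was 44.5 CPM in replicate 4 of ZT0, where the next value was 51.0 (0.715 of the range). In all 44 groups of values were examined this way, and chance alone gives about 1 in 20 (2.2 here). Lars2 was added to the genes examined after its values were seen, so its flags cannot be set against that number.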

How the results depend on the processing

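Counts of members called moved by more than 1.5 times under these alternatives, and the cause was not tested. With library totals, 4 cytosolic and 2 mitochondrial members differed between any times, 2 and 2 had a cosine, 1 and 2 were called for ZT12 against ZT0, 0 and 1 for ZT6 against ZT0, and 2 cytosolic for ZT18 against ZT12. JTK called 0 and 0. DESeq2 called 3 mitochondrial members between any times and 2 for the cosine, 4 cytosolic members for ZT18 against ZT6, 5 for ZT0 against ZT18, 1 and 1 for ZT12 against ZT6, and 1 mitochondrial (Nars2) for ZT18 against ZT12. Without the 3 libraries highest in enterocyte markers, or the 3 highest in heat shock genes, 0 mitochondrial members were called between any times, 3 cytosolic for the cosine, 1 cytosolic for ZT12 against ZT0 and 1 mitochondrial for ZT6 against ZT0, and 1 cytosolic for the latter without the enterocyte libraries. Both settings left fewer ZT12 libraries. With a minimum of 10 counts over all libraries, 1 mitochondrial member had a cosine, and 1 of each class was called for ZT6 against ZT0. Without the 2 libraries highest in Lars2, chosen after seeing the data, 1 cytosolic member (Eprs) was called for ZT12 against ZT6.

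Leaving out 1 library at a time gave 6 to 8 cytosolic and 0 to 1 mitochondrial members between any times, and 3 to 5 and 0 to 1 for the cosine. It gave 1 to 3 and 0 for ZT12 against ZT0, 1 to 4 cytosolic for ZT18 against ZT6, 1 to 2 and 0 to 2 for ZT6 against ZT0, 0 to 1 and 0 to 1 for ZT12 against ZT6, 6 to 7 and 0 to 1 for ZT18 against ZT12, and 1 to 5 cytosolic for ZT0 against ZT18. None of the called changes of single members reversed, but the sign of the cytosolic median for ZT12 against ZT0 did with library totals (0.12 and -0.04). The replicate numbers did not pair the animals (correlation of deviations -0.12 to 0.08 over 30 pairs, and 4 of 20 libraries closest to their own number). With the replicate block, 8 cytosolic members and 1 mitochondrial member were called between any times, 1 mitochondrial member for ZT6 against ZT0 and 1 (Nars2) for ZT18 against ZT12.

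Over all genes, ZT12 against ZT0 called 539, but 959 with library totals, 342 without the enterocyte libraries and 827 by DESeq2. ZT12 against ZT6 called 640, but 206 without the enterocyte libraries, 289 without the heat shock libraries and 972 by DESeq2. ZT18 against ZT12 called 1388, and 781 without the enterocyte libraries. With library totals, ZT18 against ZT6 called 690 in place of 1151, ZT6 against ZT0 687 in place of 1226, and ZT0 against ZT18 686 in place of 1057. JTK called 227, against 2727 between any times and 1578 for the cosine. The share of higher calls moved with library totals from 50.8% to 3.96% for ZT12 against ZT0, 49.1% to 34.6% for ZT18 against ZT6, 52.9% to 32.6% for ZT6 against ZT0, 51.1% to 5.49% for ZT12 against ZT6, 48.3% to 78.1% for ZT18 against ZT12, and 44.7% to 75.9% for ZT0 against ZT18. The median of all genes shifted with it by -0.17 for ZT12 against ZT0 and -0.13 for ZT12 against ZT6. Mean counts per library ran from 41.7 to 18200 in the mitochondrial and from 604 to 13000 in the cytosolic class.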
